A study of Mus musculus with 6 samples.

Results

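The Fanconi anaemia genes encode proteins that repair crosslinks between the strands of DNA, and the 10 genes described here, Fanca, Fancb, Fancc, Fancd2, Fance, Fancf, Fancg, Fanci, Fancl and Fancm, make up the FANCM anchor, the core complex and the FANCD2-FANCI pair of that pathway. Their probes were found through the RefSeq accession that the array files give for each spot, and all probes of these 10 genes were kept, 17 in all. The genes were 10 of 23462 that could be matched to a symbol and 10 of 17062 that could be tested. The set was put together with the readout known, because Fancf had the lowest log2 fold change of all 17062 genes. The differences between the groups in these 10 genes are therefore given as a description, without p-values. Calls of these genes at the adjusted threshold are named to show how they depend on the processing. They are not tests of the set.

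RNA was measured on 6 single-colour Agilent arrays. The cells were BV2, a mouse microglial line, and all 6 samples had received lipopolysaccharide (LPS), a bacterial wall component that activates microglia. The 3 control samples are labelled as lacking PGC-1α overexpression, and the other 3 as carrying it (PGC-1α, encoded by Ppargc1a, is a transcriptional coactivator of mitochondrial genes). By the study's culture methods, BV2 cells received a lentivirus with the PGC-1α coding sequence or a negative control virus, the overexpressing cells were selected with puromycin, and LPS was given at 500 ng/ml for 6 h, although those methods do not name the array samples. The labels do not say whether replicates are separate cultures, so p-values measure the spread between these samples alone, and no untreated cells without LPS were analysed here.

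Each array held 59305 spots other than controls, of which 41122 to 45165 were well above background, and intensities at the 75th percentile lay between 1617 and 1893 in the control group and between 856 and 1268 in the overexpression group. Values below are log2 signals relative to that percentile of the same array. On this scale the median gene was 0.23 higher on the overexpression arrays, and 0.03 higher after quantile normalization. Both Ppargc1a probes were too dim to be tested, with differences of 1.14 and 0.26 on the log2 scale, so they give no firm check of the labels. Of 12 microglia and macrophage markers, 10 were well above background on all 6 arrays, among them Csf1r, Itgam and Spi1, and Cx3cr1 and P2ry12 on none. Their summed signal, in units of the array's 75th percentile, was 88.4 to 91.8 in control and 124 to 147 in overexpression samples, and of the 10 tested 5 were called higher and 1, Tmem119, lower (by -2.68), where 36.9% of all genes were called higher and 19.6% lower. With quantile normalization limma called 0 of them higher, also at an unadjusted p under 0.05, and 2 lower. For 9 neuron, astrocyte and oligodendrocyte markers it was 23.2 to 29.0 and 36.7 to 50.1, nearly all of it from the Snap25 probe, and without Snap25 1.25 to 1.40 and 1.53 to 1.78. Of the 8 tested limma called 4 higher and 0 lower. At an unadjusted limma p under 0.05 these were 4 and 1, beside 6977 and 3654 of all 17062 genes. With quantile normalization it called 3 higher, when Snap25 differed by 0.08 in place of 0.71. Both counts of higher markers included Rbfox3. Its tested probe was well above background on 2 control and 3 overexpression arrays, so it passed the filter through the overexpression group alone. Of the 9 markers, Syt1 was well above background on no array and Snap25, Gfap and Mbp on all 6. The part of these marker shifts in the results below was not tested.

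When a replication fork meets a crosslink, FANCM binds the DNA and the core complex assembles on it. The core complex is a ubiquitin ligase whose catalytic subunit is FANCL, and it attaches ubiquitin to FANCD2 and FANCI. The marked pair clamps onto DNA and brings in nucleases, translesion polymerases and the proteins of homologous recombination. Within the core complex FANCF is an adaptor that joins other subunits. Since crosslinks block replication, the pathway is best known from dividing cells, and a cultured microglial line divides where most microglia of the healthy adult brain do so rarely.

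The start regions of 3 of these genes are shown because they include the gene with the largest fall, the gene whose call was lower under every alternative processing besides Fancf, and the gene whose brightest probe was highest above control. Each is a RefSeq promoter window of 300 bases on GRCm38.p6, from 250 bases before the start of the gene to 50 after it, read on the strand of the gene. Capitals mark CCAAT (or its complement) and GGGCGG (or its complement), the letters of the CCAAT box and the GC box.
Fancf, chr7:51862218-51862517, minus strand: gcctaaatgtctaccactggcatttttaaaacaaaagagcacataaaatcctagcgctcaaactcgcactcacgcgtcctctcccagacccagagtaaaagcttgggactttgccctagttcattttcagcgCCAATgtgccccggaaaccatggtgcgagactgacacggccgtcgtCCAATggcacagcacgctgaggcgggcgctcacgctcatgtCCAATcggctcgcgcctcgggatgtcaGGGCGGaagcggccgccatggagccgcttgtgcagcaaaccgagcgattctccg
Fanci, chr7:79392088-79392387, plus strand: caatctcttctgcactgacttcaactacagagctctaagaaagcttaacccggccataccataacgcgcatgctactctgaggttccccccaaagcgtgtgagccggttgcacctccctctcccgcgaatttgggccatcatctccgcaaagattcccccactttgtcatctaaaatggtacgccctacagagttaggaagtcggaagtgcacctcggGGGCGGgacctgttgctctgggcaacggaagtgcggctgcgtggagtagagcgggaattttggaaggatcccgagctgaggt
Fancm, chr12:65075353-65075652, plus strand: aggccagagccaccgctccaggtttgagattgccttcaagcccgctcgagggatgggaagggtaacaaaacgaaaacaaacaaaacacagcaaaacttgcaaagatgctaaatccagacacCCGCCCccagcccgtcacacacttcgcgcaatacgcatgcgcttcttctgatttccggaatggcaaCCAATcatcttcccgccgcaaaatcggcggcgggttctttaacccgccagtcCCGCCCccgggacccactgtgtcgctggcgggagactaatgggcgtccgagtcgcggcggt

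The Fancf window held 3 CCAAT letters on the strand of the gene and 1 GGGCGG, Fanci 1 GGGCGG and no CCAAT, and Fancm 1 CCAAT and 2 GGGCGG on the opposite strand. Windows were at hand for 9 of the 10 genes, all but Fancd2. CCAAT on either strand was found in 6 of these 9 windows and in 37.4% of 32544 mouse promoter windows, and GGGCGG in 6 of 9 and in 35.9%. At least 2 CCAAT were present in 11.6% of all windows. The E2F letters TTTCCCGC, TTTCGCGC, TTTGCCGC or TTTGGCGC were found in the window of Fancg alone and in 2.28% of all windows. The letters TNAAGGTCA, a binding element of the oestrogen-related receptors with which PGC-1α works, were found in the window of Fancl alone and in 1.28% of all. Neither was found in the Fancf window. These matches are letters in a window and not measured binding sites.

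All 10 genes were measured, and 15 of their 17 probes were well above background on all 6 arrays. Taking the brightest tested probe of each gene, 5 of 10 passed the adjusted threshold of 0.05 as lower on the overexpression arrays (Fancf, Fancb, Fanci, Fance and Fancd2), 2 as higher (Fancm and Fancc), and Fanca, Fancg and Fancl passed in neither direction. Over all 17062 genes 19.6% were called lower and 36.9% higher, and since the set was chosen on this contrast nothing is read from these shares. The median difference over the 10 genes was -0.36, against 0.23 over all genes. With quantile normalization 4 were called lower and 2 higher, where 22.3% and 23.1% of all genes were, and the median difference was again -0.36 while that of all genes was 0.03. Of the 16 probes with a value on every array, all overexpression arrays lay below all control arrays in 9 and above them in 4, and the groups overlapped in 3. Over all 23405 such probes the shares were 25.3% and 37.7%. The 9 include the dim Fancc probe, which passed the filter through the control group alone.

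**Figure D1:**
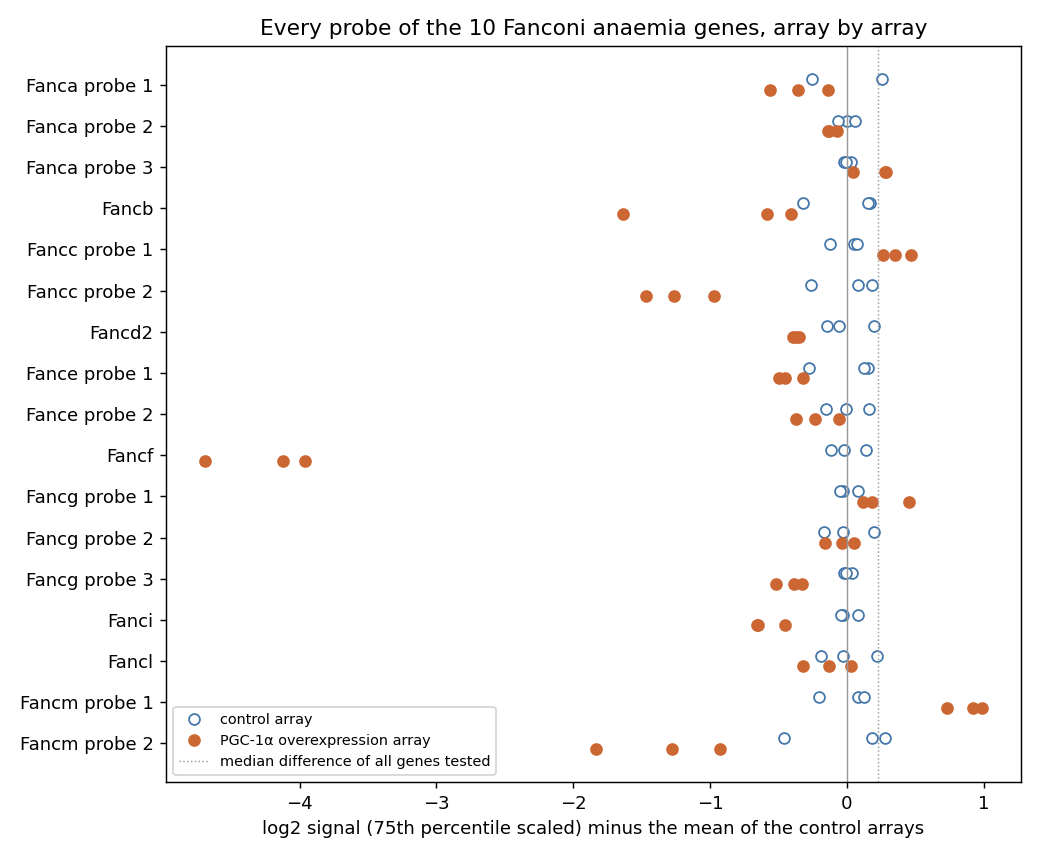
Log2 signal of each of the 17 probes on each array, minus the mean of the control arrays for that probe. Open circles are control arrays, filled circles overexpression arrays, and the dotted line is the median difference of all genes tested, 0.23. Fancf stands far to the left, and the probes of Fancc and Fancm fall on both sides of 0. The dim Fancc probe was well above background on none of the overexpression arrays.

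Fancf fell further than any other gene tested. Its single probe (NM_001115087) read -0.99, -1.16 and -1.25 on control arrays 1 to 3, against -5.83, -5.26 and -5.09 on overexpression arrays 1 to 3. The groups were thus separated by a gap wider than the spread within either of them. The means were -1.13 ± 0.13 (SD, n = 3) and -5.39 ± 0.38 (SD, n = 3), a log2 difference of -4.26 (SE 0.20) or 19.1-fold. No gene of the 17062 tested was lower.

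The same fall was seen in the intensities before scaling. They were 812, 729 and 794 on the control arrays, against 20.4, 22.4 and 37.1 on the overexpression arrays. On the control arrays the Fancf spot was brighter than 66.2% to 68.1% of spots, and on the overexpression arrays brighter than 29.6% to 36.8%. It remained well above background on all 6 arrays, where the dimmest spots with that status on the overexpression arrays had intensities of 11.0 to 19.3. The low group therefore sat close to the lower end of what these arrays separate from background, and the size of the fall depended on how background was treated. With normexp background correction, which adds an offset of 50, the log2 difference was -2.45. It was -4.37 with quantile normalization and -3.95 in the authors' normalized values.

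The difference was found on both slides. Replicates 1 and 2 of both groups were on one slide, where the log2 difference of Fancf was -4.47, and replicate 3 of both groups was on the other, where it was -3.84. Without any 1 array it lay between -4.41 and -4.04. Fancf is also the shortest of the 10 genes, spanning 1691 bp where the others span 8231 to 195959 bp, and it was read by 1 probe, so no second probe of the gene was available to compare.

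Gas2, a cytoskeletal gene, overlaps Fancf in the genome, and the nearest genes on either side are Slc17a6, a vesicular glutamate transporter, and Svip, an inhibitor of protein degradation at the endoplasmic reticulum. Gas2 had means of -0.99 ± 0.30 (SD, n = 3) in control and -1.29 ± 0.25 (SD, n = 3) in overexpression arrays. Its groups overlapped (log2 difference -0.30, SE 0.19, limma adjusted p = 0.20). Svip read -6.47 ± 0.26 in control and -5.37 ± 0.26 in overexpression arrays (SD, n = 3 each). It was well above background on 1 control array and on 3 overexpression arrays, so it passed the filter only through the group where it is high, and no size or test of its difference is given. Slc17a6 was too dim to be tested. Gas2, the neighbour of Fancf measured in both groups, was not called lower. Around all 10 genes there were 30 overlapping or adjacent genes, of which 21 were tested, 9 called higher and 2 lower (Vps9d1 next to Fanca and Ppard next to Fance), where 36.9% and 19.6% of all genes were. With quantile normalization 5 were called higher and 2 lower, where 23.1% and 22.3% of all genes were. Both counts of higher genes included Svip, which passed the filter only through the overexpression group. The neighbour measured in both groups that passed the threshold with a log2 difference of 1 or more was Asb9, next to Fancb, at 1.54 (SE 0.19, limma adjusted p = 6.7e-04) and at 0.78 with normexp and quantile normalization.

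**Figure D2:**
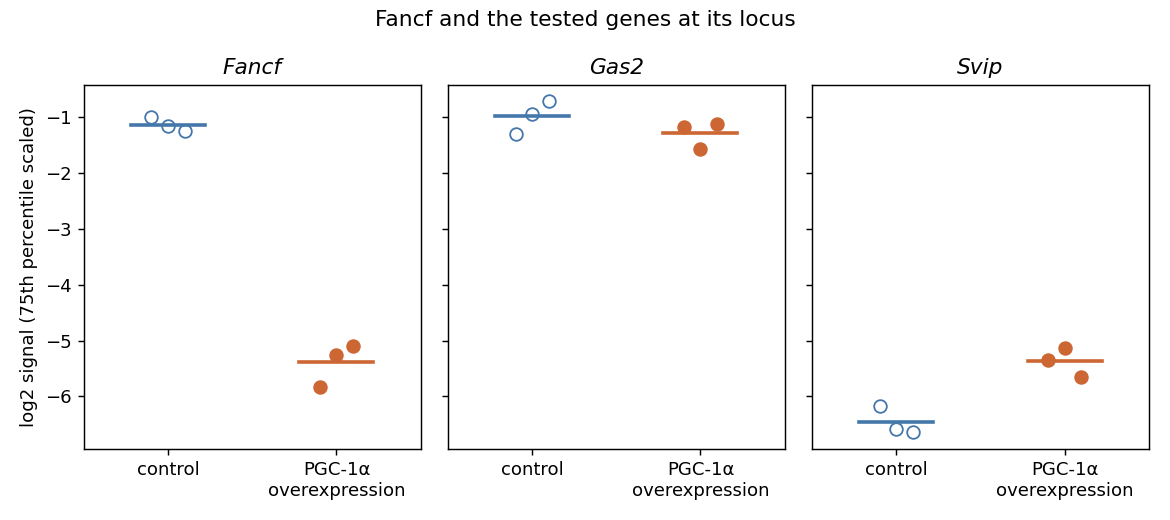
Log2 signal, relative to the 75th percentile of the array, of Fancf, of the overlapping gene Gas2 and of the neighbour Svip, on 3 control arrays (open) and 3 overexpression arrays (filled), with group means as lines. Levels of different probes are not comparable, and within each panel Fancf falls from -1.13 to -5.39, the Gas2 groups overlap, and Svip lies higher on the overexpression arrays but was well above background on 1 control array.

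The other genes of the core complex moved far less than Fancf and not all in one direction. Fancb (NM_175027), an X-linked subunit that binds FANCL, read -0.65, -0.16 and -0.17 on the control arrays, against -0.91, -1.97 and -0.73 on the overexpression arrays. The groups did not overlap, but overexpression array 2 lay far below the other arrays. The means were -0.33 ± 0.28 and -1.20 ± 0.67 (SD, n = 3 each), a log2 difference of -0.88 (SE 0.31). It was -1.03 within the first slide and -0.56 within the second. Its call was lost without overexpression array 2, when the difference was -0.50, and also without control array 2 (-0.79), control array 3 (-0.80) or overexpression array 1 (-1.02), with quantile normalization (-0.86) and in the authors' values (-0.78).

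Fance encodes the subunit that contacts FANCD2. Its brighter probe (NM_001163819) read 0.66, 0.63 and 0.24 on the control arrays, against 0.01, 0.19 and 0.06 on the overexpression arrays. The groups did not overlap, with control array 3 lying close to overexpression array 2, and the log2 difference was -0.43 (SE 0.15). The second probe (NM_001163820) read 0.29, -0.02 and 0.13 on the control arrays, against -0.24, 0.08 and -0.10 on the overexpression arrays. Those groups overlapped and the difference was -0.22 (SE 0.14), so both Fance probes pointed the same way and 1 of them was past the threshold. The call of the brighter probe was lost without control array 1 (-0.35), control array 2 (-0.36), overexpression array 1 (-0.39) or overexpression array 3 (-0.41), with normexp (-0.31) and where its probes were averaged (-0.32).

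Fancc, which forms a part of the core complex together with FANCE and FANCF, was read by a brighter and a dim probe. The brighter probe (NM_007985) read -0.24, -0.42 and -0.22 on the control arrays, against 0.06, 0.18 and -0.03 on the overexpression arrays, a log2 difference of 0.36 (SE 0.13) without overlap. It was 0.45 within the first slide and 0.19 within the second. The dim probe (NM_001042673) read -5.70, -5.36 and -5.26 on the control arrays, against -6.70, -6.91 and -6.41 on the overexpression arrays. The scanner marked it as well above background on each of the 3 control arrays and on 0 overexpression arrays. It thus passed the filter through the control group alone, and no fall is read from it. With normexp background correction its difference was 0.13. The call of the brighter probe was lost without any one of 5 arrays, where the values were 0.30 to 0.40, and also with median scaling (0.25) and normexp (0.28). Where the Fancc probes were averaged the gene was called lower, at -0.44. That average takes in the dim probe, well above background on 0 overexpression arrays, so no direction of the gene is read from it.

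The 3 probes of Fanca, whose protein pairs with FANCG in the complex, did not point one way, and none passed the threshold. The brightest (NM_016925) had no value on control array 1, whose spot was an outlier, and read -0.05 and 0.46 on the other control arrays, against -0.15, -0.36 and 0.06 on the overexpression arrays. Those groups overlapped, and the fit of the 5 values gave a log2 difference of -0.35 (SE 0.21). The second probe lay lower on all overexpression arrays (-0.30, -0.29 and -0.23 against -0.16, -0.10 and -0.22), by -0.11 (SE 0.11), and the third lay higher on all of them (-1.30, -1.05 and -1.06 against -1.31, -1.36 and -1.35), by 0.20 (SE 0.12). Neither passed the threshold.

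Fancg, a scaffold subunit, was also read by 3 probes. The brightest (NM_053081) read -1.78, -1.66 and -1.80 on the control arrays, against -1.63, -1.29 and -1.56 on the overexpression arrays, higher on all of them by 0.25 (SE 0.14) but not past the threshold. The second overlapped between the groups, with a difference of -0.05 (SE 0.14). The dimmest read -3.50, -3.56 and -3.55 and then -3.86, -4.06 and -3.93, lower by -0.41 (SE 0.12). It was past the adjusted threshold among all probes, but with normexp its difference was -0.02. Fancl (NM_025923), the ubiquitin ligase subunit itself, read -0.58, -0.42 and -0.17 on the control arrays, against -0.52, -0.70 and -0.35 on the overexpression arrays. Its groups overlapped, with a log2 difference of -0.14 (SE 0.16) that lay between -0.25 and -0.03 under the 17 alternatives.

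Fancm encodes the DNA translocase that anchors the core complex to chromatin, and its probes moved in opposite directions. The brighter probe read -1.96, -1.67 and -1.63 on the control arrays, against -0.83, -1.02 and -0.77 on the overexpression arrays. All overexpression arrays lay well above all control arrays, with means of -1.75 ± 0.18 and -0.87 ± 0.13 (SD, n = 3 each) and a log2 difference of 0.88 (SE 0.14). The other probe, which carries the same accession (NM_178912), read -2.25, -1.61 and -1.51 on the control arrays, against -3.07, -3.62 and -2.72 on the overexpression arrays. Here all overexpression arrays lay below all control arrays, with means of -1.79 ± 0.40 and -3.14 ± 0.46 (SD, n = 3 each) and a difference of -1.35 (SE 0.27). Both directions were present on both slides, at 0.89 and 0.86 for the first probe and -1.42 and -1.21 for the other. The mean of the Fancm probes differed by -0.23, so the direction given for Fancm holds for 1 probe and not for the gene as a whole.

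FANCD2 and FANCI are the paired proteins that receive the ubiquitin, and both of their genes were lower on the overexpression arrays. Fancd2 (NM_001033244) read 0.41, 0.07 and 0.16 on the control arrays, against -0.18, -0.16 and -0.14 on the overexpression arrays. The 3 overexpression values lay almost on one another, below the lowest control array. The means were 0.21 ± 0.18 and -0.16 ± 0.02 (SD, n = 3 each) and the log2 difference was -0.37 (SE 0.13). Its call was lost when any 1 of the 6 arrays was left out, with differences of -0.44 to -0.27.

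Fanci (NM_145946) read 0.70, 0.59 and 0.57 on the control arrays, against -0.04, -0.03 and 0.16 on the overexpression arrays. Both groups were tight and well apart, with means of 0.62 ± 0.07 and 0.03 ± 0.12 (SD, n = 3 each) and a log2 difference of -0.59 (SE 0.12). It was -0.68 within the first slide and -0.41 within the second. Fanci and Fancf were called lower under all 17 alternatives, Fanci at -0.70 to -0.55. Without the filter on dim probes, where 23333 genes were tested, Fancb, Fancc, Fancd2 and Fance lost their calls.

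**Figure D3:**
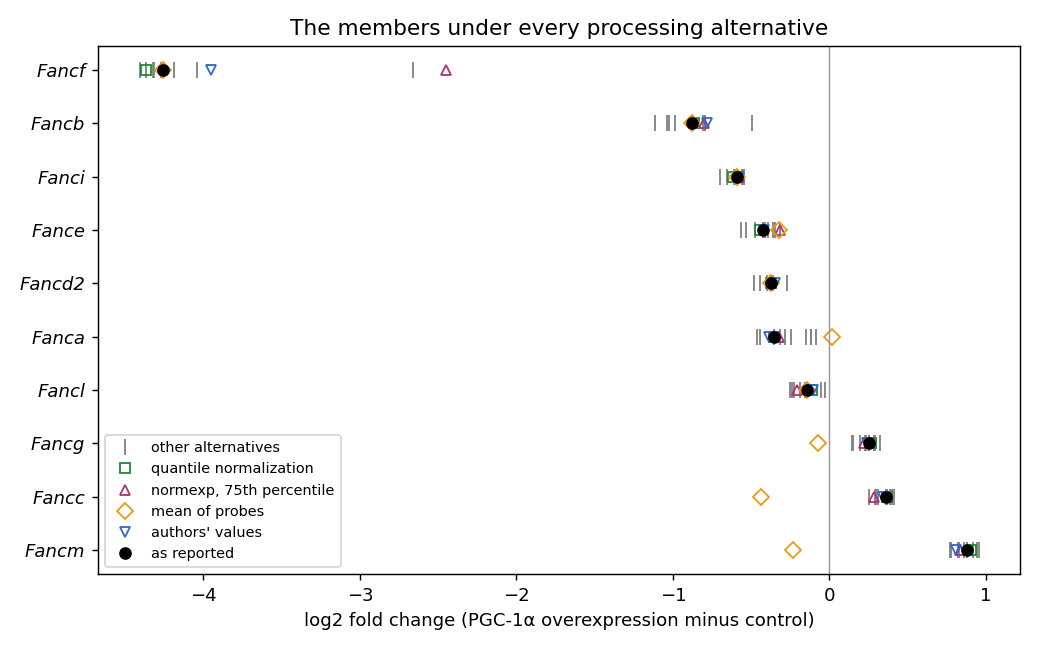
Log2 fold change of the 10 genes as reported (black) and under each alternative processing (other symbols and ticks). Fancf lies between -4.41 and -2.45 under all of them, and Fanca, Fancc, Fancg and Fancm cross 0 where the probes of a gene are averaged.

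The genes that work with these 10 were taken from 5 lists of 55 genes, all tested, of which 21 were called lower, 4 higher and 30 neither, beside 19.6% and 36.9% of all genes. Their median difference was -0.25, against 0.23 over all genes. With quantile normalization 23 were called lower and 1 higher, against 22.3% and 23.1% of all genes. The 21 called lower included Brca1 and Poln, and the 4 called higher included Clspn, genes whose probes had opposite calls.

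The partners of the core complex and of FANCM were lower in 4 of 5 cases, beside 19.6% of all genes, with a median difference of -0.96. Faap24, which binds FANCM, went from 0.34 ± 0.13 to -0.82 ± 0.10 (SD, n = 3 each), a log2 difference of -1.16 (SE 0.13, limma adjusted p = 4.2e-04), and its second probe was called lower as well. Cenps, a histone-fold protein that also binds FANCM, went from 0.91 ± 0.13 to -0.08 ± 0.14, a difference of -0.98 (SE 0.13, limma adjusted p = 9.7e-04). Faap100 (-0.96) and Faap20 (-0.41), both subunits of the core complex, were lower as well, and Cenpx (0.31, limma adjusted p = 0.061) was not past the threshold. Of the 5 genes that attach or remove the ubiquitin on FANCD2 and FANCI or bind crosslinks beside them, limma called 0 (1 was lower at an unadjusted p under 0.05), and with quantile normalization 1 was called lower. Ube2t, the conjugating enzyme that works with FANCL, differed by -0.25 (limma adjusted p = 0.40) and Usp1, which takes the ubiquitin off, by -0.05 (limma adjusted p = 0.83).

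Nucleases and translesion synthesis genes were lower in 6 of 14 cases and higher in 1 (Slx1b, by 0.55), beside 19.6% and 36.9% of all genes, with a median difference of -0.51. With quantile normalization the call of Slx1b was lost (0.41, limma adjusted p = 0.054). One of the 6 lower, the polymerase gene Poln, had probes with opposite calls, at -0.73 and 0.71, and the first differed by 0.071 with normexp. Slx4, the scaffold of the crosslink nucleases, read -1.53, -1.72 and -1.75 on the control arrays, against -3.62, -4.09 and -3.47 on the overexpression arrays. It fell by 2.06 on the log2 scale (SE 0.18, limma adjusted p = 1.4e-04), and by 1.22 with normexp. Ercc4, a nuclease that SLX4 holds, differed by -1.36 (SE 0.14, limma adjusted p = 3.0e-04) on its brightest probe. Another probe gave 0.18, not past the threshold. The remaining probe was well above background on none of the overexpression arrays, so it passed the filter through the control group alone. No size of its fall is given, and its difference with normexp was -0.19. Without control array 1 or 3 the probe that did not pass became the brightest of Ercc4, at 0.17 and 0.19.

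Homologous recombination genes were lower in 9 of 14 cases and higher in 0 by limma, beside 19.6% and 36.9% of all genes. Their median difference was -0.56. At an unadjusted limma p under 0.05 the counts were the same, beside 3654 and 6977 of all 17062 genes. Palb2, which links BRCA1 to BRCA2, went from -0.73 ± 0.10 to -2.10 ± 0.15 (SD, n = 3 each), a log2 difference of -1.37 (SE 0.13, limma adjusted p = 2.3e-04). Xrcc3, which acts in the repair of broken strands, differed by -1.12 (SE 0.18, limma adjusted p = 0.0020). Brca2, a partner of PALB2, differed by -1.05 (SE 0.27, limma adjusted p = 0.011), and its other probes by -0.93 and -0.61. On both other probes the groups overlapped, and the one at -0.93 was not past the threshold (limma adjusted p = 0.0501). Brca1 was lower on its brightest probe, by -0.89 (SE 0.15, limma adjusted p = 0.0020), and higher by 0.48 on the other. The mean of the Brca1 probes differed by -0.20 (limma adjusted p = 0.16), so no direction is given for the gene. Brca1 is nevertheless counted among the 9 called lower.

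Damage sensing and dissolution genes were lower in 2 of 17 cases (Atrip and Rad1) and higher in 3 (Rmi1, Clspn and Rad9a), beside 19.6% and 36.9% of all genes, with a median difference of 0.04. With quantile normalization 3 were lower and 1, Clspn, higher, beside 22.3% and 23.1% of all genes. Atrip, the partner of the ATR kinase, differed by -1.01 (SE 0.13, limma adjusted p = 7.5e-04). The Clspn probes differed in direction, at 0.57 and -0.58. Rmi1, of the complex that dissolves crossed strands, was higher by 0.70 (SE 0.14, limma adjusted p = 0.0046), but by 0.08 (limma adjusted p = 0.57) with quantile normalization.

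Because many repair genes are made in S phase, 20 S phase genes were set beside them. Of the 19 tested, 4 were called lower (Mcm10, Rrm2, Gins1 and E2f1) and 1 higher (Mcm6), beside 19.6% and 36.9% of all genes. The median difference of the 19 was -0.06. With quantile normalization limma called 10 lower and 0 higher, where 22.3% and 23.1% of all genes were called. At an unadjusted limma p under 0.05 the counts were 13 and 0, beside 4395 and 4741 of all 17062 genes. Mcm10, a replication initiation factor, was lower by -1.48 (SE 0.14, limma adjusted p = 2.2e-04) and Rrm2, the regulated subunit of ribonucleotide reductase, by -1.09 (SE 0.16, limma adjusted p = 0.0015). The share of cells in S phase was not measured, and its part in the results above was not tested.

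**Figure D4:**
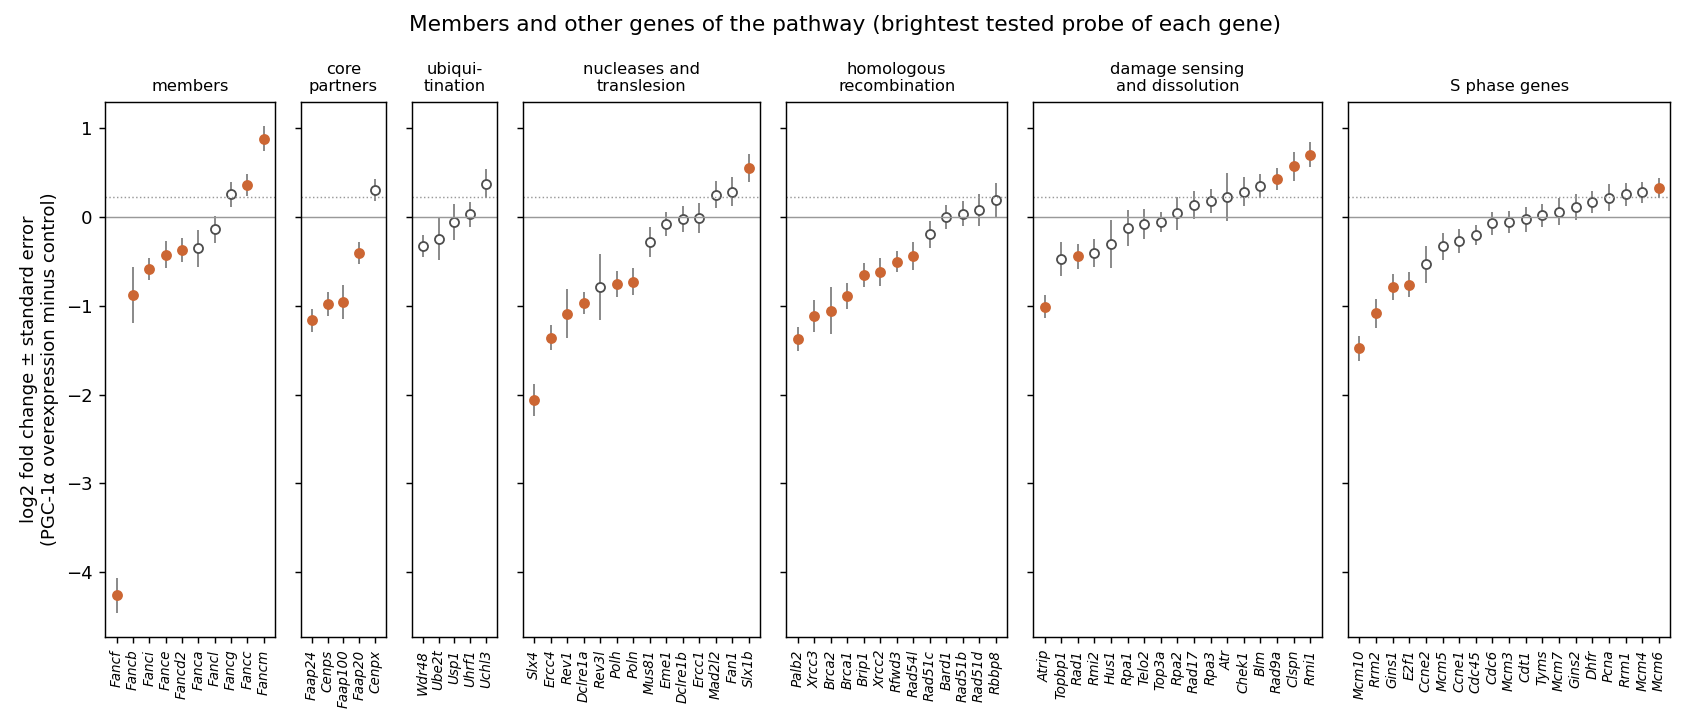
Log2 fold change with its standard error for the brightest tested probe of each of the 10 genes, of the genes of the 5 partner lists (without 1 that is not reported here) and of the S phase genes. Filled circles passed the adjusted threshold, the dotted line is the median of all genes tested, and Fancf lies below all other genes drawn.

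The 5 tested genes whose log2 signals over the 6 arrays were most like those of Fancf were Adora2b (Pearson's r = 0.9995, log2 difference -2.82), an adenosine receptor, Cers3 (0.9995, -1.19), a ceramide synthase, Mars2 (0.9995, -3.71), the mitochondrial methionyl-tRNA synthetase, Zkscan5 (0.9992, -1.35), a zinc finger gene, and Mrnip (0.9991, -1.80), which binds the MRE11 complex. A correlation over 6 arrays in 2 separate groups mainly records the group difference, and 294 of 16295 genes exceeded 0.99. With normexp Cers3 differed by -0.13 and was not past the threshold, and Mars2 differed by -2.22.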

How the data were processed

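Total RNA of 3 control and 3 PGC-1α overexpression samples of LPS-treated BV2 cells was hybridised to single-colour arrays. The authors scanned the arrays with Agilent Feature Extraction, and the deposited intensity values of the green channel are background subtracted and not normalized between arrays (the labels name the dye Cy3, their labelling protocol Cy5). A table of log2 values that the authors normalized in GeneSpring was also deposited and served as an alternative.

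Intensities were converted to log2 and the 75th percentile over the 59305 spots of the array was subtracted. Outlier spots were dropped, and repeats of a probe averaged. Of 56605 probes, 33767 were matched to 1 gene and 22838 to none through their accession in a table of RefSeq genes (GRCm38.p6). Since the array was designed on an older assembly, no probe positions are given. A probe entered the test with 2 or more values in each group and a signal well above background throughout 1 group or both. Each gene was represented by its brightest such probe. A missing value was not imputed. The comparison used limma 3.58.1 (lmFit, then eBayes) under R 4.3.3, with Benjamini-Hochberg adjustment over all 17062 genes and a threshold of 0.05, and probes likewise over 24558 probes. The groups of 3 allow no exact two-sided permutation p below 0.1. The scripts were tested on simulated data. Tables and plots were made with Python 3.11.15, numpy 2.4.6, pandas 2.3.3 and matplotlib 3.10.9.

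The 10 genes, the lists of partner, S phase and marker genes and the tests were chosen with earlier results of these data known. Named were all probes of the 10 genes, the genes past the threshold with the largest and second largest differences in each partner and S phase list, with Brca1, Brca2, Ube2t and Usp1 in any case, the neighbours of Fancf, other neighbours with a difference of 1 or more, and the 5 genes most like Fancf. Other genes of short lists (such as Faap20, Faap100, Cenpx, Slx1b and Mcm6) were named after their values were seen. Marker genes followed fixed lists. One gene of the recombination list, although counted, is not reported here by name. Alternatives covered background correction, scaling, the filter, averaging of probes, slide and replicate blocks, the authors' values and leaving out each array. The array totals limit the precision only through the number of arrays.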

Additional observations from a re-analysis of the deposited data

How the results depend on the processing

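Fancf stayed lower throughout, at -2.45 with normexp background correction, -2.66 where quantile normalization followed normexp, and -3.95 in the authors' values. Its call was also kept throughout, but the set was put together with its fall known. Of the 10 genes, 2 were called higher, but 1 with median scaling, with either normexp setting or without a filter on dim probes, 0 where probes were averaged, and 1 to 2 without 1 array. The 5 called lower became 2 without the filter and 2 to 3 without 1 array. Among the 55 partner genes, 4 were called higher, but 1 with quantile normalization, 2 with median scaling, normexp and quantile normalization, averaged probes or the authors' values, 7 with the slide as a block or with a trended and robust fit, and 2 to 4 without 1 array. The 21 called lower ranged from 17 to 23 without 1 array. The S phase gene called higher, Mcm6, became 0 genes with quantile, median, normexp with quantile or the authors' scaling, without the filter, with the replicate block and without any 1 array, and 2 with the trended fit. The 4 called lower became 10 with quantile normalization, 9 with normexp and quantile normalization, 10 in the authors' values, and 4 to 5 without 1 array. With averaged probes Fanca gave 0.016, Fancg -0.070 and Fancm -0.23, genes whose probes differ in direction. Fancc gave -0.44 with averaged probes. The Fancc value passed the threshold as lower, but it takes in the dim probe, not well above background on any overexpression array. Without 1 array, Ercc4 ranged from -1.45 to 0.19, turning positive (0.17 and 0.19) without control replicate 1 or 3, where another probe became its brightest, and Usp1 ranged from -0.24 to 0.16, turning positive without control replicate 2 (0.011) or overexpression replicate 2. For the other changes the cause was not tested. Over 32 genes followed through the alternatives, 496 of 541 values kept direction and side of the threshold. These genes include Svip and the gene not reported here by name. They do not include Fancf, given above, or genes such as Faap20, Faap100, Cenpx, Slx1b and Mcm6.

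Replicates 3 of both groups, alone on their slide, deviated together (correlation of deviations 0.60), but replicates 1 (-0.16) and 2 (0.07) did not, so the numbers were not taken as pairs. With the replicate block 10561 genes were called in place of 9633, and with the slide as a block 10921. In the replicate block, 5 of the 10 genes were called lower and 2 higher, partner genes 22 lower and 5 higher, and S phase genes 5 lower and 0 higher, and Fancf kept -4.26. Over all genes 65.3% of calls were higher, 50.9% with quantile normalization and in the authors' values, 46.1% with normexp and quantile normalization, and 56.2% with median scaling. The choice of Fanca's probe with all values was added after seeing the data and left the counts at 5 and 2. Fancf, Mars2, Slx4, Svip and the dim probes of Fancc, Fancg and Ercc4 have low signals in at least 1 group, which limits the size of their differences.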
